A study of Mus musculus with 8 samples.

Results

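Apical-basal polarity and spindle orientation were followed through 10 genes, chosen by symbol from the 23433 symbols counted in newborn mouse skin: Pard3, Pard6b, Pard6g, Prkci, Llgl1, Llgl2, Dlg1, Mpp5, Gpsm2 and Numa1. All 10 were found, and all 10 passed the filter on low counts that kept 14176 genes. In the libraries of mice with an induced miR-200 transgene, edgeR called none of the 10 against controls in either sorted cell population. It called 0.952% of all genes in the hair germ and 6.34% in the interfollicular epidermis. DESeq2 called 1 of the 10, Numa1 in the interfollicular epidermis, and 663 and 1095 of all 14176 genes. In the interfollicular epidermis all 10 had lower fitted values in transgenic mice, where 64.1% of genes of like abundance did. Pard6b, Numa1 and Gpsm2 were the lowest. In the hair germ 6 of 10 were lower, a share close to that of genes of like abundance (57.9%). Numa1 had the largest positive difference between hair germ and interfollicular epidermis, and its call depended on the fit used.

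RNA-seq was done on total RNA from 4 pups at postnatal day 0.5, with 2 sorted skin populations per pup and so 8 libraries. The hair germ is the bud of epidermal cells from which a follicle grows, and the interfollicular epidermis (IFE) is the surface epithelium that surrounds the follicles. Both were sorted as K14RFP-positive cells high for α6 integrin, the hair germ with high and the IFE with low P-cadherin, K14RFP being a red fluorescent reporter of keratin 14 expression. Transgenic pups 4 and 6 carried pTRE2-200bcl, a doxycycline-responsive miR-200 construct, together with K14rtTA, the transactivator driven by the keratin 14 promoter. Control pup 3 carried K14rtTA alone and control pup 5 carried pTRE2-200bcl alone, so the controls were of unlike genotype, and every comparison with them sets 2 pups against 2. All pups were of mixed strain, and all dams ate doxycycline chow during pregnancy. The promoter limits induction to cells that express keratin 14. The study asks how the miR-200 family bears on adhesion and polarity in the developing follicle.

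Epithelial cells separate an apical from a basal side through groups of cortical proteins. The Par complex (Pard3, Pard6 and an atypical protein kinase C) marks the apical side and cell junctions, the Crumbs complex with its adaptor Mpp5 (also called Pals1) supports it, and the Scribble group (Scrib, Dlg and Llgl proteins) holds the basolateral side by mutual exclusion with the kinase. The same cortex orients cell division: Gpsm2 (LGN), bound to inhibitory G protein α subunits, recruits Numa1 (NuMA), which anchors dynein and pulls on the astral microtubules of the spindle. In the developing epidermis this machinery is known for turning divisions perpendicular to the basement membrane as the skin stratifies.

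MicroRNAs of the miR-200 family read their targets through bases 2 to 8, the seed, which is in capitals in the mature sequences below from the RefSeq table (build GRCm38.p6). They are shown because the seed divides the family into 2 groups, one of miR-200b, miR-429 and miR-200c and one of miR-200a and miR-141. The mature miR-200b-3p is encoded at chr4:156055685-156055706, miR-200a-3p at chr4:156054911-156054932 and miR-429-3p at chr4:156053916-156053937. Those of miR-200c-3p and miR-141-3p lie at chr6:124718324-124718346 and chr6:124717917-124717938, and all 5 are on the minus strand. Mature microRNAs were not measured here, so which of the 5 the construct raised is not shown by these data.
mmu-miR-200b-3p: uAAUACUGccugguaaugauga
mmu-miR-200a-3p: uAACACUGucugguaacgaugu
mmu-miR-429-3p: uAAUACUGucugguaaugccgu
mmu-miR-200c-3p: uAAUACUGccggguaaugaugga
mmu-miR-141-3p: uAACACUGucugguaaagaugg

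The longest annotated 3′ UTR of each of the 10 genes (GENCODE M21, GRCm38) was searched on the transcript strand for the 7 bases that pair with each seed, CAGTATT for the first group and CAGTGTT for the second. Of the 10 genes, 5 held 1 match each and 5 held none, and no match was followed by an A. A matched CAGTATT stood in Pard6b (bases 1868 to 1874 of 1993) and Mpp5 (403 to 409 of 3080). The CAGTGTT letters stood in Pard3 (254 to 260 of 2172), Dlg1 (1186 to 1192 of 3348) and Pard6g (1057 to 1063 of 1817). Prkci, Llgl1, Llgl2, Gpsm2 and Numa1 held neither. The sites of 4 genes are shown with the match in capitals and 10 bases on each side, since these are the letters in which the 10 genes differ for this family.
Pard6b: tattaaatgtCAGTATTttactacaat
Mpp5: ctgagaataaCAGTATTttcttaaaca
Pard3: atctgggaggCAGTGTTttctctccct
Dlg1: ggtttcctgtCAGTGTTgtgttcttgt

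Such matches are frequent. Among 3′ UTRs of 0.8 to 1.25 times the length, either word occurs in 41.3% for Pard6b, 57.4% for Mpp5, 44.4% for Pard3, 58.4% for Dlg1 and 37.8% for Pard6g. It occurs in 52.4% for Prkci, which has none, and in 6.63% to 25.8% for the other 4 genes without a match. A match is a description of letters and not a measured site.

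Counts in genes ranged from 7109871 to 14039583 per library, and a count of 0 would allow up to 3 counts, or 0.199 to 0.522 CPM (counts per megareads of library size, scaled by TMM, the trimmed mean of M values). The primary miR-200 transcript stood at 0.176 to 3.83 CPM in the 4 control libraries and at 526 to 798 CPM in the 4 transgenic ones. The labels of control and transgenic thus held in every library, while this level does not check which construct each control pup carried. Basal keratinocyte markers such as Krt14 were abundant throughout, and the summed hair germ markers were 1400 to 1895 CPM in hair germ against 707 to 1058 CPM in IFE libraries. Cdh3, the P-cadherin gene used for the sort, had a log2 difference of 0.49 between hair germ and IFE over all pups and did not pass the test (edgeR adjusted p = 0.126). Rn45s, the ribosomal RNA precursor, took 30.6% of counts in the IFE of control pup 3 and 29.0% in that of transgenic pup 4, against 3.56% to 13.0% elsewhere. The hair germ pairs agreed least, with a Pearson r across genes of 0.872 in controls and 0.878 in transgenics, against 0.935 and 0.969 in the IFE pairs. Levels below are in this CPM, ± gives the SD (n = 2), and fold changes are log2 values with an SE from edgeR's quasi-likelihood test and p adjusted by Benjamini-Hochberg over all 14176 genes.

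Levels of different genes were compared per kilobase of merged exon. By the median over the 8 libraries, Numa1 was the most abundant at 59.5 CPM per kilobase, followed by Gpsm2 at 46.5 and the atypical protein kinase C gene Prkci at 36.7. Pard6g at 27.5, Pard3 at 22.1 and Dlg1 at 18.0 formed the middle, and Mpp5 at 14.6, Llgl1 at 13.6, Pard6b at 11.4 and Llgl2 at 7.35 the lower end. The ranges of the 8 libraries overlapped for each neighbouring pair in this order. Among paralogs, Pard6g exceeded Pard6b and Llgl1 exceeded Llgl2 by count in all 8 libraries. The ratio of Pard6b to Pard6g counts ran from 0.196 in the hair germ of transgenic pup 6 to 0.977 in that of control pup 5, and the Llgl2 to Llgl1 ratio from 0.389 to 0.767.

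**Figure D1:**
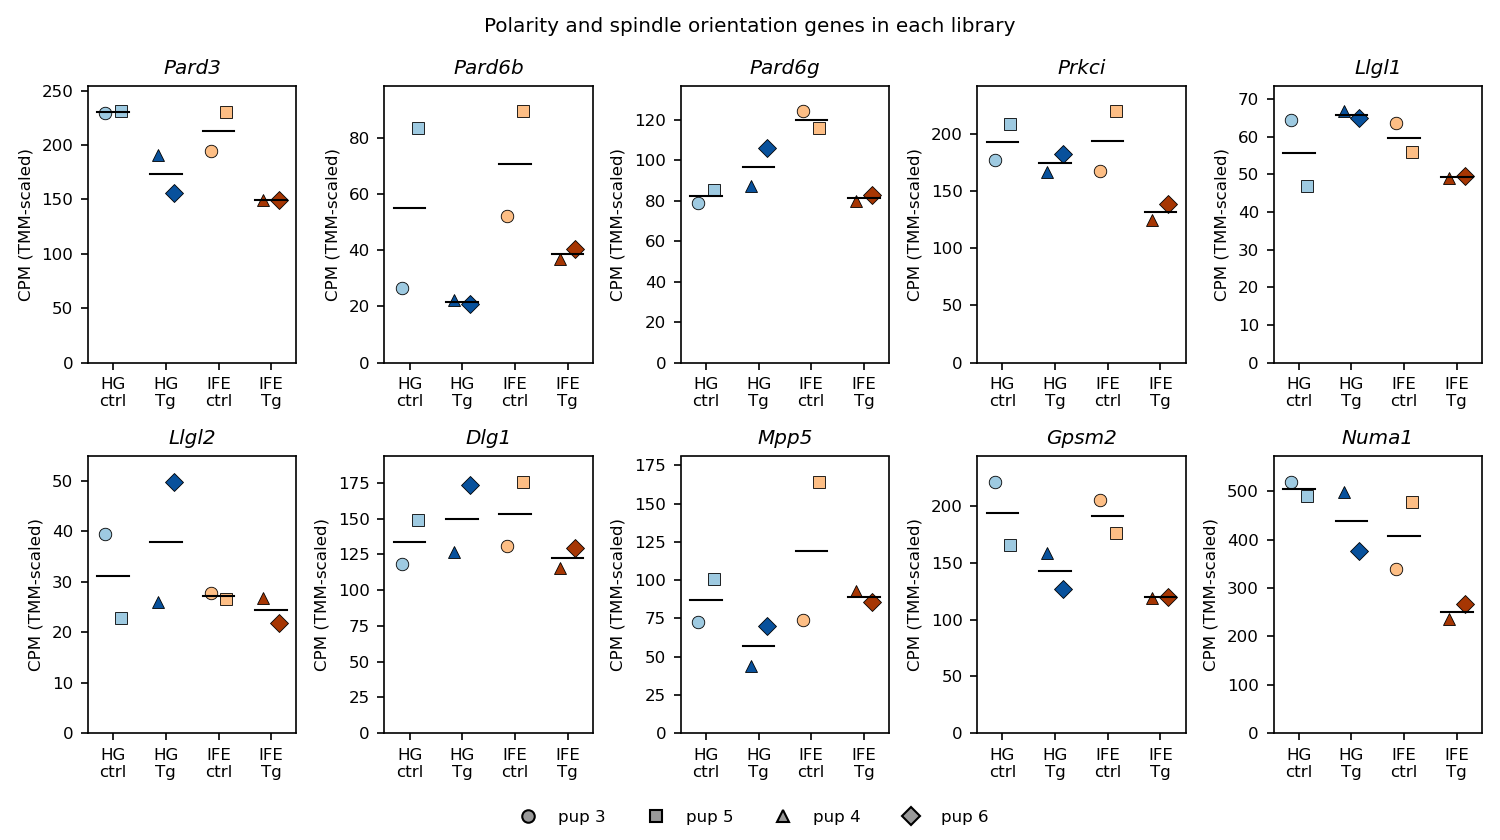
TMM-scaled CPM of each of the 10 genes in the 8 libraries, by group (HG, hair germ; IFE, interfollicular epidermis; ctrl, control; Tg, transgenic), with 1 marker shape per pup and a line at the group mean. Pard6b and Mpp5 differ widely between control pups 3 and 5, and the 2 transgenic IFE libraries lie close together for most genes.

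In the hair germ, the comparison of transgenic with control pups asks what miR-200 induction does to these genes in the forming follicle. None of the 10 was called by edgeR, where 0.952% of all genes tested were (0.762% higher and 0.190% lower). DESeq2 and limma-voom also called none, where they called 663 and 17 of all 14176 genes. At an unadjusted p under 0.05 there was 1 of 10, Pard6b, against 17.1% of all genes. The median of the 10 was -0.176 against 0.045 for all genes, or -0.076 for the 5322 genes within the same range of abundance. Of the 10 values 6 lay below 0, as did 47.2% of all genes and 57.9% of those of like abundance. The CPM of the 2 groups did not overlap for 4 genes that were lower in transgenics (Pard3, Pard6b, Mpp5 and Gpsm2; background 16.9%) and 2 that were higher (Pard6g and Llgl1; background 22.4%).

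In the IFE, the same comparison also called 0 of 10 with edgeR, where 6.34% of all genes were called (4.99% higher and 1.35% lower). It called 0 of 10 with limma-voom, where 661 of all 14176 genes were called. DESeq2 called 1, Numa1, where it called 1095 of all 14176 genes. An unadjusted p under 0.05 was reached by 5 of 10 genes (Pard3, Pard6g, Prkci, Gpsm2 and Numa1), against 17.3% of all genes and 23.1% of those of like abundance. All 10 fitted values lay below 0, as did 50.6% of all genes and 64.1% of those of like abundance, and the median of the 10 was -0.534 against -0.008 and -0.151. The groups did not overlap for 8 genes, all lower in transgenics and all but Llgl2 and Mpp5, where the background was 25.0%; none was higher without overlap, where it was 27.9%. Without both libraries of pup 4 the 10 values were again all below 0 with a median of -0.436, and without the 2 libraries richest in Rn45s the median was -0.570. Leaving out IFE control pup 5 gave 9 of 10 below 0 with a median of -0.369. Leaving out IFE transgenic pup 6 gave 9 of 10 with a median of -0.521.

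Other cell types differed between the IFE groups too. Summed immune markers stood at 87.1 and 164 CPM in the controls and at 2064 and 2675 CPM in the transgenics, and 10 of 10 of them rose (median log2 4.16); none was at 0 in either group. Basal keratinocyte markers summed to 28880 and 30690 CPM in the controls and to 13890 and 14050 CPM in the transgenics, and 4 of 6 of them fell (median -0.973). The mitotic markers had a median of -0.47 with 0 of 10 called, and summed to 2026 and 2158 against 1343 and 1638 CPM. Melanocyte markers summed to 18.9 and 24.0 CPM in controls and 96.7 and 101 in transgenics, with 4 of 8 higher (median 4.11). In bulk samples fewer cells of a type and less RNA per cell cannot be told apart, and the part of these changes in the values of the 10 genes was not tested. In the hair germ, immune markers summed to 43.9 and 96.7 CPM in controls, with Itgb2 at 0 in both, and to 183 and 290 CPM in transgenics (289.5 in pup 4), with 4 of 10 higher. Melanocyte markers there went from 30.4 and 31.7 to 133 and 176 CPM, with 3 of 8 higher, and Mlana and Sox10 were at 0 in both controls. Basal keratinocyte markers there summed to 21760 and 26480 against 14410 and 17970 CPM (median -0.453, 0 of 6 called), and mitotic markers to 2330 and 2688 against 1669 and 1981 CPM (median -0.44, 0 of 10 called); the part of these was not tested either.

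**Figure D2:**
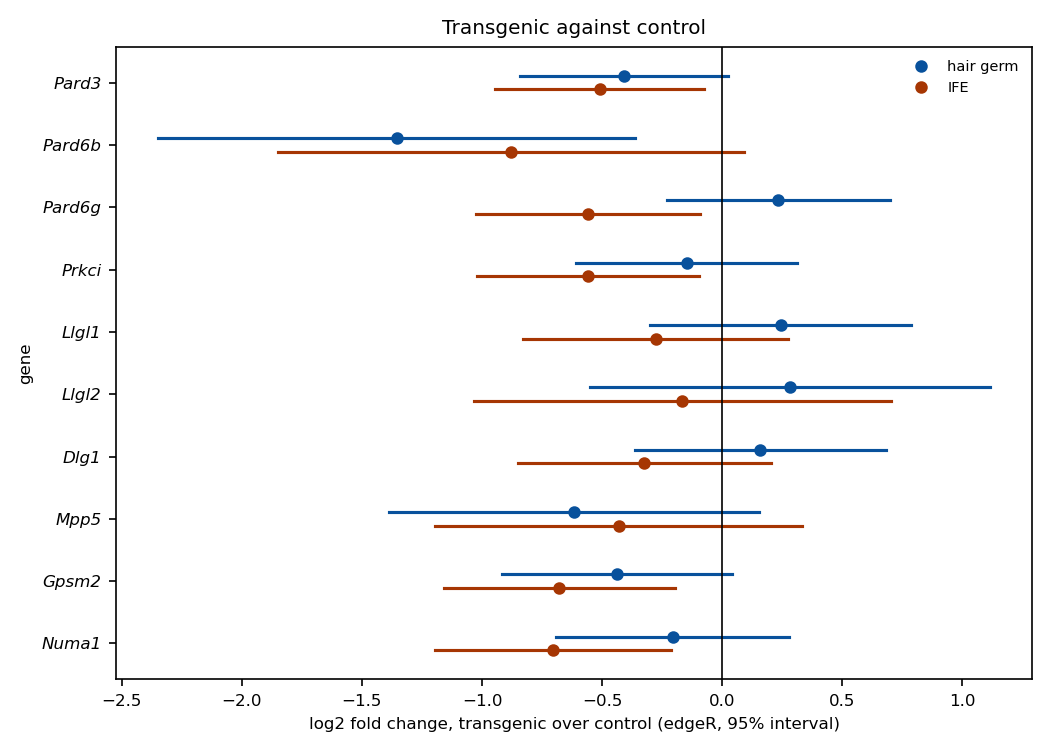
Log2 fold change of transgenic over control libraries for each of the 10 genes in the hair germ and the IFE, with the 95% interval of the edgeR fit. In the IFE all 10 points lie below 0 and 5 intervals exclude 0 before adjustment, and in the hair germ only the interval of Pard6b does.

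Pard3 (chr8:127063893-127612286, plus strand; all gene positions are from GENCODE M21 on GRCm38), the scaffold that gathers the Par complex at junctions, was one of the most even genes among controls. It stood at 229 and 231 CPM in the hair germ of control pups 3 and 5 and at 194 and 231 in their IFE, against 191 and 156 in the hair germ and 149 and 149.6 in the IFE of transgenic pups 4 and 6. The transgenic libraries were thus lower than the controls in both populations with no overlap. The group means were 230.3 ± 1.37 and 173 ± 24.3 CPM in hair germ (SD, n = 2), a log2 change of -0.41 (SE 0.20, adjusted p = 0.322). In the IFE they were 213 ± 25.9 and 149 ± 0.321 CPM (-0.51, SE 0.20, adjusted p = 0.194).

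Pard6b (chr2:168081004-168101203, plus strand), an adaptor that links Cdc42 to the atypical kinase, was the most variable of the 10. Its CPM in the hair germ was 26.6 in control pup 3 and 83.5 in control pup 5, against 22.5 in transgenic pup 4 and 20.7 in transgenic pup 6. The transgenic values were close to each other and both lay below the controls, but control pup 5 was 3.14 times control pup 3. The log2 change was -1.36 (SE 0.46, 95% interval -2.35 to -0.36, adjusted p = 0.165), or 0.391 of the control level. Without control pup 3 it was -2.00 (adjusted p = 0.0219), and without control pup 5 it was -0.30 (adjusted p = 0.649), so a single library decided its size and its call. In the IFE Pard6b stood at 52.1 and 89.6 CPM in controls and at 37.0 and 40.6 in transgenics (-0.88, SE 0.44, adjusted p = 0.358; -0.42 without control pup 5). The gene holds the CAGTATT word printed above.

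Pard6g (chr18:80046890-80119639, plus strand), its paralog with the same adaptor role, took opposite signs in the 2 populations. Its hair germ values were 78.6 and 85.5 CPM in controls and 87.3 and 106 in transgenics (log2 0.23, SE 0.21, adjusted p = 0.616; 0.13 without control pup 3 and 0.07 without transgenic pup 6). In the IFE the controls stood at 124 and 116 CPM and the transgenics at 80.0 and 82.8, both well below them (-0.56, SE 0.21, adjusted p = 0.181). The difference between the 2 effects, hair germ minus IFE, was 0.79 (SE 0.30, 95% interval 0.14 to 1.45) and did not pass the test (adjusted p = 0.505).

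Prkci (chr3:30995747-31052959, plus strand) encodes the atypical protein kinase C of the complex. Hair germ control values of 177 and 209 CPM and transgenic values of 167 and 182 overlapped (-0.15, adjusted p = 0.772; -0.31 to -0.03 without either control library). In the IFE it stood at 168 and 220.1 CPM in controls and at 125 and 139 in transgenics, all transgenic below all control (-0.56, SE 0.21, adjusted p = 0.178; -0.34 without control pup 5).

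Of the Scribble group, the Llgl genes encode cortical proteins that the atypical kinase phosphorylates and displaces. Llgl1 (chr11:60699723-60714186, plus strand) ranged from 46.9 to 66.8 CPM over the 8 libraries, with log2 changes of 0.25 in the hair germ (adjusted p = 0.656) and -0.28 in the IFE (adjusted p = 0.704). Its hair germ value was 0.44 without control pup 3 and 0.03 without control pup 5, and its IFE value -0.12 without control pup 3. Llgl2 (chr11:115824049-115855780, plus strand) was the lowest of the 10 per kilobase and ranged from 21.8 to 49.8 CPM, with 0.28 (adjusted p = 0.753) and -0.17 (adjusted p = 0.923). Dlg1 (chr16:31663443-31875129, plus strand), a scaffold of the lateral membrane, ranged from 116 to 176 CPM, with 0.16 (adjusted p = 0.783) and -0.32 (SE 0.24, adjusted p = 0.607; -0.08 without IFE control pup 5). The hair germ values of Llgl2 and Dlg1 changed sign when 1 library was left out: Llgl2 was -0.07 without control pup 5 and -0.27 without transgenic pup 6, and Dlg1 was -0.05 without control pup 3 and -0.11 without transgenic pup 6. The IFE value of Llgl2 was 0.01 without transgenic pup 6.

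Mpp5 (chr12:78748907-78840714, plus strand) links Crumbs proteins to the Par complex and is the other holder of the CAGTATT word. In the hair germ it stood at 72.8 and 101 CPM in controls (100.7 in pup 5) and at 43.8 and 69.9 in transgenics, lower without overlap (-0.62, SE 0.35, 95% interval -1.39 to 0.16, adjusted p = 0.406). Leaving out control pup 5 gave -0.36, and leaving out transgenic pup 4 or 6 gave -0.35 or -1.01. In the IFE its controls were far apart, 74.2 CPM in pup 3 and 164 in pup 5, and enclosed the transgenic values of 92.9 and 85.4 (-0.43, SE 0.35, adjusted p = 0.650). Leaving out control pup 5 turned that IFE value to 0.27. Pard6b and Mpp5 had the lowest values of the 10 in the hair germ. In the IFE Pard6b, Numa1, Gpsm2, Pard6g, Prkci and Pard3 all lay below Mpp5. Of these, Numa1, Gpsm2 and Prkci hold neither word. Medians were also taken across all 12579 tested genes with an annotated 3′ UTR. The 1906 with at least 1 CAGTATT had -0.126 in the hair germ and -0.188 in the IFE. The 3720 with either word had -0.053 and -0.117, and the 8859 with neither had 0.079 and 0.030. These sets were not matched for 3′ UTR length or abundance, and all genes of like abundance to the 10 had -0.076 and -0.151. The part of either word in the values of the 10 genes was not tested.

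Gpsm2 (chr3:108678638-108722309, minus strand), the cortical adaptor that sets where the spindle is pulled, was lower in transgenics in both populations with no overlap. It stood at 222 and 166 CPM in the hair germ of the controls and at 159 and 127 in that of the transgenics (-0.44, SE 0.22, adjusted p = 0.344; -0.26 without control pup 3). In the IFE the controls were at 206 and 177 CPM and the transgenics at 119 and 120.2 (192 ± 20.6 against 119.6 ± 0.898, SD, n = 2). That log2 change of -0.68 (SE 0.22, 95% interval -1.16 to -0.20, adjusted p = 0.108) set the transgenics at 0.625 of the controls.

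Numa1 (chr7:101934111-102014964, plus strand), which joins Gpsm2 to dynein at the cortex and also focuses spindle poles, had the smallest adjusted p of the 10 in the IFE. There it stood at 339 and 477 CPM in controls and at 235 and 266 in transgenics, all lower (408 ± 97.8 against 250.4 ± 21.9, SD, n = 2). The log2 change was -0.70 (SE 0.22, 95% interval -1.19 to -0.21, adjusted p = 0.0984), a fold of 0.614, and DESeq2 called it (-0.67, adjusted p = 0.0466). Without IFE control pup 5 it was -0.43 (adjusted p = 0.628). Its hair germ values were 520.1 and 489.7 CPM in controls and 498 and 377 in transgenics, which overlapped (-0.21, SE 0.22, adjusted p = 0.682; -0.46 without transgenic pup 4 and -0.04 without transgenic pup 6). Gpsm2 counts were 0.319 to 0.608 of Numa1 counts over the 8 libraries, and lowest in the 2 transgenic hair germ libraries (0.319 and 0.338), next to 0.340 in the hair germ of control pup 5.

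The hair germ and IFE of one pup come from the same animal, so the libraries are paired by pup. The main edgeR fit did not use this pairing and treats the libraries of a pup as independent. Its SE, intervals and p below are therefore unpaired, and the pup as a replicate block is an alternative. In controls none of the 10 was called by edgeR, DESeq2 or limma-voom. The background was 0.00705% for edgeR (a single gene of 14176), 149 genes for DESeq2 and 0 for limma-voom. The values ran from -0.547 to 0.307, with 1 of 10 at an unadjusted p under 0.05, against 8.47% of all genes. That gene was Pard6g (-0.55, SE 0.21, edgeR adjusted p = 0.567), the 1 gene lower in the hair germ without overlap (background 19.2%). Numa1 was the 1 gene higher without overlap (background 14.2%). In transgenics none was called by edgeR or limma-voom and 1 by DESeq2, Numa1. There edgeR called 4.62% of all genes (0.875% higher and 3.75% lower), and DESeq2 and limma-voom called 906 and 558 of 14176. By edgeR 1 of 10 had an unadjusted p under 0.05, against 18.5%. Of the 10, 6 were higher in the hair germ than in the IFE without overlap (Pard3, Pard6g, Prkci, Llgl1, Gpsm2 and Numa1; background 26.4%) and 2 lower (Pard6b and Mpp5; background 28.9%).

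Numa1 led this comparison. Its hair germ level was 1.54 times the IFE level in control pup 3, 1.03 in control pup 5, 2.12 in transgenic pup 4 and 1.42 in transgenic pup 6, so it was higher in 4 of 4 pups. In transgenics the log2 difference was 0.81 (SE 0.23, 95% interval 0.31 to 1.30, adjusted p = 0.0673), a fold of 1.75. With the pup as a replicate block it was 0.79 and passed (adjusted p = 0.0413), and DESeq2 gave 0.80 (adjusted p = 0.0125). Without both libraries of pup 4, which leaves 1 library in each transgenic group, it was 0.44. This comparison and the one between IFE groups share the 2 transgenic IFE libraries, in which Numa1 was lowest. In controls the value was 0.31 (SE 0.22, adjusted p = 0.706), and 0.11 to 0.57 without either IFE control library. Other cell types differed between the 2 populations too. In transgenics 10 of 10 immune markers were lower in the hair germ (median -3.54), and 1 of 6 basal keratinocyte markers was higher (median 0.31). In controls the medians were -1.55 and -0.257, with none called. The part of these in the Numa1 values was not tested.

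Over both genotypes, edgeR and limma-voom called none of the 10. The background was 3.39% for edgeR (2.39% lower in the hair germ) and 221 of 14176 genes for limma-voom. DESeq2 called Numa1, where it called 1014 genes. By edgeR 2 of 10 had an unadjusted p under 0.05, against 18.8%. For Numa1 the mean difference was 0.56 (SE 0.16, 95% interval 0.21 to 0.90, adjusted p = 0.0815). The replicate block gave 0.56 (adjusted p = 0.0477) and DESeq2 0.56 (adjusted p = 0.0120). Without pup 4, which leaves 1 library in each transgenic group, it was 0.39. Pard3 was the other gene with a higher CPM in the hair germ in each of the 4 pups, where 10.8% of all genes were, by ratios from 1 (rounded down) to 1.28. Pard6b and Mpp5 were lower there in each pup, as were 14.9% of all genes. Pard6b had ratios of 0.511, 0.932, 0.607 and 0.511 in pups 3, 5, 4 and 6 (-0.61, SE 0.32, adjusted p = 0.332). Without the hair germ library of control pup 5 its value was -1.14 and passed (adjusted p = 0.0203), and without that of control pup 3 it was -0.31 (adjusted p = 0.520). Mpp5 had ratios of 0.472 to 0.982 (-0.56, SE 0.25, adjusted p = 0.254), with a value of -0.22 without the IFE library of control pup 5. Llgl2 varied from 0.855 to 2.28 (0.42, SE 0.28, adjusted p = 0.454), with 0.14 without the hair germ library of transgenic pup 6.

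**Figure D3:**
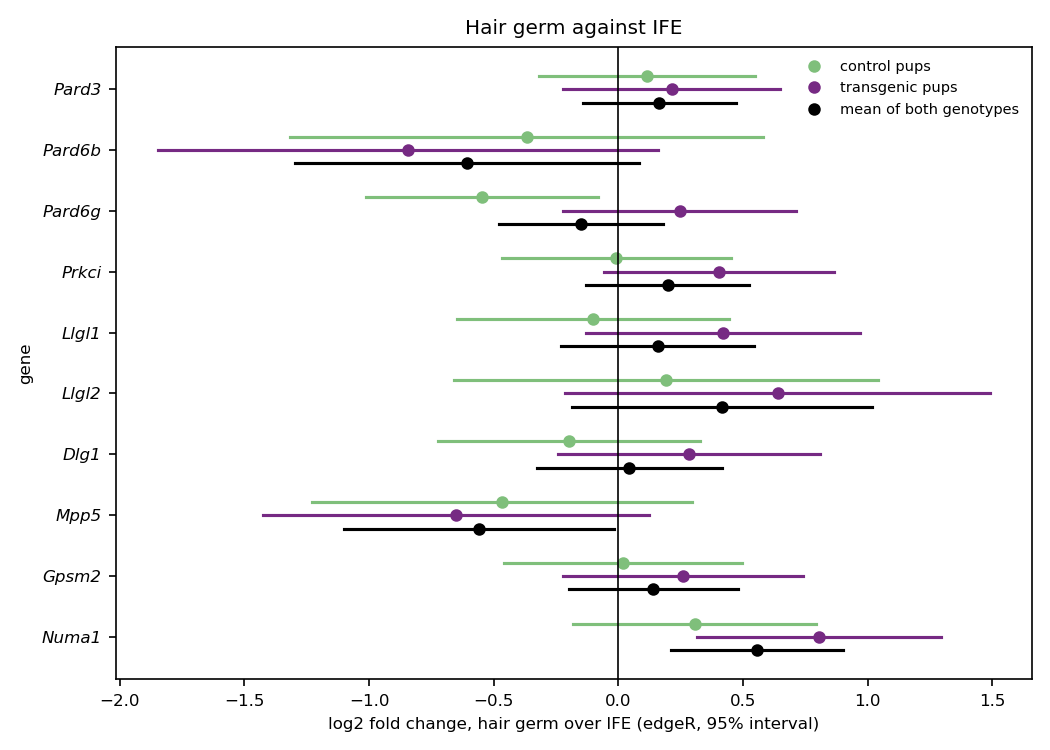
Log2 fold change of hair germ over IFE for each of the 10 genes in control pups, in transgenic pups and as the mean of both genotypes. The 95% interval is that of the edgeR fit, which did not use the pairing by pup. Numa1 lies farthest to the right, at 0.81 in transgenics, and Pard6b and Mpp5 lie on the left in each set.

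The transgenic effect itself was compared between the populations with an interaction term, in the same fit that did not use the pairing by pup. None of the 10 passed by edgeR, DESeq2 or limma-voom. The background was 0.134% for edgeR, 177 of 14176 genes for DESeq2 and 1 for limma-voom. By edgeR 1 of 10, Pard6g, had an unadjusted p under 0.05, against 8.11%. The median of the 10 was 0.431 against 0.065 for all genes. Pard6b had a difference of -0.48 (SE 0.63, adjusted p = 0.951), which was 0.56 without the hair germ library of control pup 5.

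A wider list of 63 genes of the same pathways gave 59 that could be tested. In the hair germ of transgenics none was called by edgeR or limma-voom and 2 by DESeq2, which called 663 of all 14176 genes. By edgeR 9 of 59 (15.3%) had an unadjusted p under 0.05, against 17.1% of all genes. The list's median was -0.062, against 0.045 for all genes and -0.076 for those of like abundance. The smallest p there was that of Pard3b, the paralog of Pard3, named after its values were seen. It stood at 8.17 and 16.7 CPM in controls and at 40.9 and 41.9 in transgenics, all higher (1.72, SE 0.39, adjusted p = 0.0597). In the IFE 2 of 59 rose and 3 fell, where 4.99% of all genes rose and 1.35% fell. The median of -0.112 stood against -0.008 for all genes and -0.151 for those of like abundance.

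The 2 that rose in the IFE were the inhibitory G protein subunit gene Gnai2 and Epb4.1l2, a protein 4.1 family member of the membrane skeleton. Gnai2 stood at 191 and 218 CPM in controls and at 645 and 580.5 in transgenics (1.58, SE 0.19, adjusted p = 0.000522). Epb4.1l2 stood at 25.8 and 43.8 against 158 and 158 CPM (2.16, SE 0.28, adjusted p = 0.000713). Both calls were kept in 17 of 18 alternative settings and lost without the 2 libraries richest in Rn45s. They moved with the immune markers given above, whose part in them was not tested. Both genes had hair germ values near those of the controls, Gnai2 at 222 and 201 against 251 and 277 CPM and Epb4.1l2 at 45.9 and 55.9 against 43.8 and 44.8 CPM.

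The 3 that fell were Gnai1, Amotl2 and Mark3. Gnai1, a further inhibitory α subunit that binds Gpsm2, went from 201 and 149.8 CPM in control IFE to 75.7 and 79.7 in transgenic IFE (-1.17, SE 0.23, adjusted p = 0.0114). Gnai1 and Gnai2 thus moved in opposite directions in that population. Gnai3, also on the list, was lower there but not called (-0.82, SE 0.31, edgeR adjusted p = 0.170). The immune and basal keratinocyte markers given above also differed between these libraries, and their part in the 3 genes that fell was not tested. Amotl2, an angiomotin family scaffold at junctions, went from 86.9 and 114 to 37.8 and 47.5 CPM (-1.23, SE 0.27, adjusted p = 0.0195). Mark3, a kinase of the Par-1 family that acts on the basolateral side, went from 187 and 223 to 113 and 126 CPM (-0.78, SE 0.20, adjusted p = 0.0393). The calls of Gnai1 and Amotl2 were kept in 12 of 18 settings and that of Mark3 in 6 of 18. Each of the 3 calls was lost without pup 4, without the 2 libraries richest in Rn45s, or without either single transgenic IFE library. Over all settings the log2 values stayed between -1.36 and -0.88 for Gnai1, -1.39 and -1.01 for Amotl2, and -0.83 and -0.61 for Mark3.

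Between hair germ and IFE, none of the wider list was called in controls by edgeR, DESeq2 or limma-voom, with 3 of 59 (5.08%) at an unadjusted p under 0.05, against 8.47% of all genes. In transgenics 1 was higher in the hair germ and 4 lower, where 0.875% and 3.75% of all genes were. With the pup as a replicate block 10 of the list were called, and 1018 of all 14176 genes. Tiam2, an activator of Rac, was higher (38.0 and 48.4 against 16.3 and 18.4 CPM, log2 1.31, adjusted p = 0.0336). Lower were Epb4.1l2 (-1.83, adjusted p = 0.00307), Gnai2 (-1.22, adjusted p = 0.00414) and the small GTPase genes Cdc42 (-0.87, adjusted p = 0.0363) and Rac1 (-0.86, adjusted p = 0.0462). Cdc42 stood at 138 and 109 against 230.2 and 224 CPM, and Rac1 at 131 and 124 against 235 and 229. Immune markers were lower in the same contrast in 10 of 10 cases (median -3.54), and their part was not tested. Fits without both libraries of pup 4 leave 1 library in each transgenic group, so whether a call held there cannot speak to a single gene. Over 19 alternative settings the log2 values ran from 1.09 to 1.48 for Tiam2, -1.89 to -1.65 for Epb4.1l2 and -1.325 to -1.01 for Gnai2. They ran from -1.105 to -0.69 for Cdc42 and -0.95 to -0.675 for Rac1. Some calls were lost even with all 8 libraries kept. Library size alone lost those of Gnai2, Cdc42 and Rac1, the legacy method those of Cdc42 and Rac1, and limma-voom that of Tiam2. Over all pups Gnai2 was the 1 gene called (-0.58, edgeR adjusted p = 0.0384). That call was lost in 10 of 18 settings, with values from -0.635 to -0.327. The replicate block called 8 genes of the list there, and 826 of all 14176 genes.

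**Figure D4:**
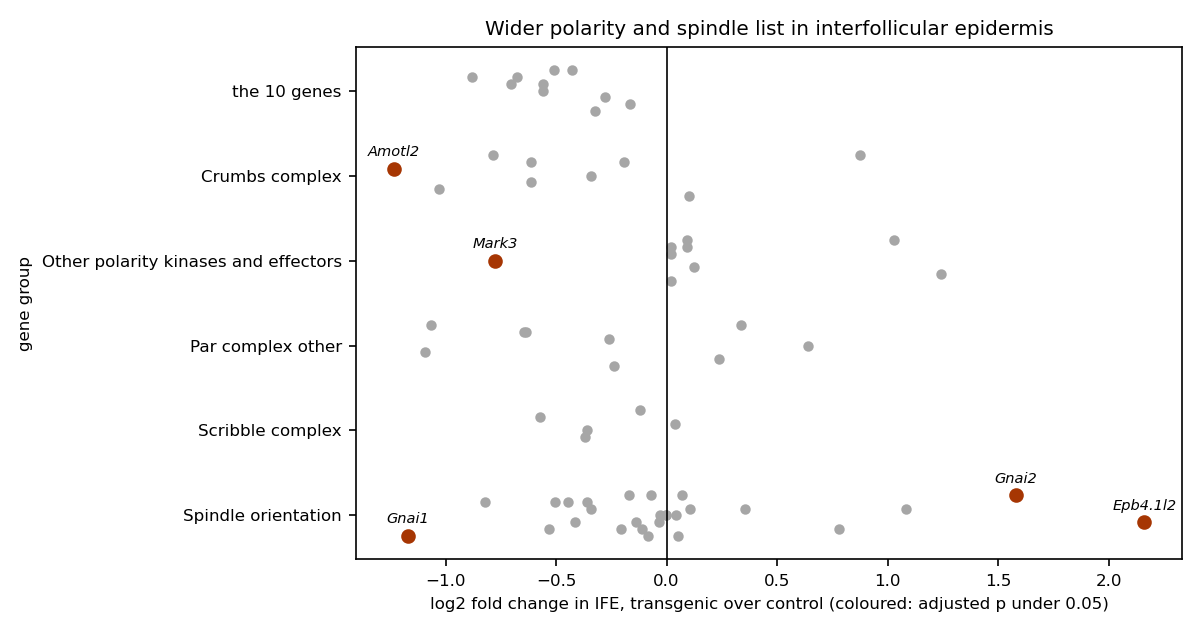
Log2 fold change of transgenic over control in the IFE for the 10 genes and the 59 tested genes of the wider list, by group, with the 5 that passed the test in colour and named. Gnai2 and Epb4.1l2 lie on the right at 1.58 and 2.16, and Gnai1, Amotl2 and Mark3 on the left.

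For the 3 genes with the smallest p, the profiles most like theirs over the 8 libraries were sought among 7355 genes by Pearson r of log2 CPM, as a description. Numa1 was most like Arhgap10 (0.991), Col7a1 (0.983) and Brd3 (0.979). Gpsm2 was most like Carm1 (0.995), Prickle1 (0.980) and Ltbp4 (0.978), and Pard6b most like Taok1 (0.995), Atf2 (0.988) and Tab3 (0.987). The points share libraries, depth and group structure.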

How the data were processed

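Total RNA of 8 sorted libraries, 2 pups in each of 4 groups, was prepared for sequencing with a stranded SMARTer kit for low input, per the labels' protocols. The authors deposited raw read counts, 1 for each symbol in each library; TopHat, HTSeq, DESeq2 and build mm10 (GRCm38) are named in the submitters' processing notes, while the sources used here give neither versions, annotation nor strand setting. Reads where exons overlap a gene on the other strand can therefore not be told apart: Llgl1 with Flii (64 bases), Gpsm2 with Clcc1 (203) and Numa1 with Il18bp (80). HTSeq assigned 23.4% to 42.4% of recorded reads to genes, and summary lines were left out. The deposited normalised matrix was not used.

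The counts were fitted with edgeR 4.0.16 in R 4.3.3 (TMM, filterByExpr by group, 4 group means over 8 libraries, quasi-likelihood with legacy set to FALSE, glmQLFTest, two-sided, Benjamini-Hochberg threshold 0.05). The common coefficient of biological variation was 0.4746, with 4 residual and 7.821 prior degrees of freedom. Each SE was obtained by dividing the size of the log2 fold change by the root of its F statistic. Limits on a count of 0 cover counting error only. The fit was tested on simulated data. Pups are the replicates, and p-values rest on 2 per group. Alternatives were other scalings, no filter, DESeq2 1.42.0, limma-voom (limma 3.58.1), the legacy method, fewer libraries and the pup as a block. The same pup number is the same animal in both populations per the labels; same-pup deviations from the group means correlated at 0.117 in controls and 0.087 in transgenics over all genes, and at 0.394 and 0.191 over the 7365 genes whose mean log2 CPM reached 4. 

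The 10 genes, the wider list and the marker lists were chosen with earlier results of these data known. All 10 genes are named, and of the wider list those called, up to 6 in each direction; the most similar profiles are given for the 3 genes with the smallest p, among genes above that same level (prior count 2). Lengths and 3′ UTRs came from GENCODE M21 transcripts linked to RefSeq.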

Additional observations from a re-analysis of the deposited data

Results flagged for a closer look

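The transgenic effect on Epb4.1l2, the protein 4.1 family gene, differed between the populations by a test of the difference itself. The hair germ effect minus the IFE effect was -2.36 (SE 0.39, edgeR adjusted p = 0.0479), with both transgenic IFE libraries at 158 CPM and the other 6 libraries at 25.8 to 55.9 CPM. The call was kept in 7 of 18 alternative settings, and the log2 value stayed between -2.83 and -2.09 over all of them. With all 8 libraries kept, it was lost with Rn45s left out, limma-voom and the legacy method, which called 1, 1 and 2 of all genes tested. Fits without any 1 library, without pup 4 or without the 2 libraries richest in Rn45s leave 1 library in a group. Calls kept or lost in such fits cannot speak to a single gene, and some of the 7 kept settings are such fits. The immune markers had a median of -2.28 in the same difference of effects, with 1 of 10 called, and their part in it was not tested.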

How the results depend on the processing

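For the 10 genes, 30 log2 values were recomputed under each alternative setting, giving 544 values, of which 528 kept their direction and side of the threshold, 9 gained a call and 7 changed sign. The number of the 10 called went from 0 to 1 with DESeq2 (transgenic IFE, and hair germ against IFE in transgenics and in all pups). With only the 4 libraries compared it went to 1 in hair germ against IFE in transgenics (Numa1, edgeR adjusted p = 0.0201), where 1385 of 13563 genes were called. With the replicate block it went to 1 in hair germ against IFE in transgenics and in all pups, where 1018 and 826 of 14176 genes were called. The block left it at 0 in controls and for the difference of effects. No paired analysis was possible for the transgenic comparisons because the genotypes share no pup. Leaving out 1 library gave 0 to 1 in the hair germ and in hair germ against IFE in transgenics and in all pups. Over those left-out libraries Dlg1 in the hair germ ran from -0.108 to 0.335, Llgl2 from -0.272 to 0.681 there and from -0.300 to 0.008 in the IFE, Mpp5 in the IFE from -0.820 to 0.270, and the Pard6b difference of effects from -1.156 to 0.564; the cause was not tested.

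Scaling by library size alone moved the median of all genes in the IFE from -0.008 to 0.149; the median of the 10 was -0.373, and all 10 stayed below 0. They were 9 of 10 below 0 without IFE control pup 5 or IFE transgenic pup 6.

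Alternatives for the wider list were chosen after seeing the data. Its calls in the transgenic hair germ, 0 in the report, were 1 with library size alone and with Rn45s left out, 2 with DESeq2 and 0 to 1 without single libraries. In the IFE, 5 in the report, they were 2 with library size alone and without pup 4, 8 with DESeq2 and with only the 4 libraries compared, 0 without the 2 libraries richest in Rn45s and 2 to 8 without single libraries. For hair germ against IFE in controls they ran from 0 to 1 without single libraries. In transgenics, 5 in the report, they were 2 with library size alone, 3 with the legacy method, 10 with the replicate block, 17 with only the 4 libraries compared, 0 without pup 4, 1 without the 2 libraries richest in Rn45s and 0 to 7 without single libraries. In all pups, 1 in the report, they were 7 with DESeq2, 8 with the replicate block, 0 with the legacy method, without pup 4 and without the Rn45s-rich libraries, and 0 to 9 without single libraries. For the difference of effects, 1 in the report, they were 2 with DESeq2, 0 with Rn45s left out, limma-voom, the legacy method and either of those sets left out, and 0 to 2 without single libraries; the cause was not tested. The number of all genes called moved with the setting too. For hair germ against IFE in transgenics it was 655 of 14176 in the report, 1018 with the replicate block and 1385 of 13563 with only the 4 libraries compared. In all pups it was 481 in the report, 826 with the block and 1014 with DESeq2. In the IFE it was 899 in the report and 1095 with DESeq2. The 10 genes stood at 20.7 CPM or more in every library, above the limit of 0.522 CPM that a count of 0 allows.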

Other observations

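The 2 control pups, which carried different parts of the transgene system, differed in some of the 10 genes in the same direction in both populations. Control pup 5 exceeded control pup 3 in Pard6b by 3.14 times in the hair germ and 1.72 times in the IFE. Mpp5 was 1.38 and 2.21 times as high, Prkci 1.18 and 1.31 times, and Dlg1 1.26 and 1.34 times. Llgl1 stood at 0.728 and 0.876 of the level of pup 3, and Gpsm2 at 0.750 and 0.859. With 1 pup of each control genotype, genotype and individual cannot be told apart, and no test was made.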
